A study of Mus musculus with 12 samples.

Results

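Mouse embryonic stem cells that had lost both Smad1 and Smad5 were compared with cells that carried the floxed genes, in the 6 of the series' 12 RNA sequencing libraries that come from this pair of genotypes. The libraries were chosen by their labels: 2 of floxed Smad1/5 fl/fl cells (FL 1 and FL 2) and 4 of Smad1/5 -/- knockout cells (KO 1 to KO 4). Both genotypes had a mixed CD-1, 129/Ola and C57Bl/6 background and were grown on gelatin in Lif with 2i, the pair of kinase inhibitors that block MEK and GSK3 and hold the cells in the naive, or ground, state. The cells came from 2 parental lines, and every line gave 1 FL and 2 KO libraries. Which library belongs to which line is not stated in the sources used here, so line and clone cannot be told apart from chance spread. The other 6 libraries, of sorted cells of a reporter line grown on feeders in serum, were used only where named. Total RNA freed of ribosomal RNA was counted per gene, between 30117843 and 37319846 counts in each of the 6 libraries.

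SMAD1 and SMAD5 are the transcription factors that carry the signal of bone morphogenetic proteins (BMPs). A BMP dimer binds a pair of type I and type II receptor kinases, the type I receptor phosphorylates SMAD1 and SMAD5, and these enter the nucleus with SMAD4, where the Id genes and the inhibitory Smad6 and Smad7 are textbook targets. In embryonic stem cells BMP is known to act beside LIF in self-renewal and to restrain ERK signalling, in part through the phosphatase DUSP9, while in the embryo it is needed for primordial germ cells.

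More genes were lower than higher in the knockout, and the falls were the larger changes. Of 15933 genes with enough counts to test, 5.03% were called, that is, had an adjusted p under 0.05 in edgeR's quasi-likelihood test: 801 genes, 294 higher (1.85%) and 507 lower (3.18%) in KO. The median size was 0.57 on the log2 scale among the rises and 1.48 among the falls. Over 2-fold, 49 genes were higher (0.308%) and 338 lower (2.12%), and over 4-fold 7 were higher and 162 lower. Genes of the cleavage-stage programme made up 34 of those 162, as described below, and 74 of the 162 were pseudogenes or predicted genes. The 162 were low in the floxed cells too, with a median FL level of 1.84 CPM (gene counts as a share of the scaled library size).

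**Figure D1:**
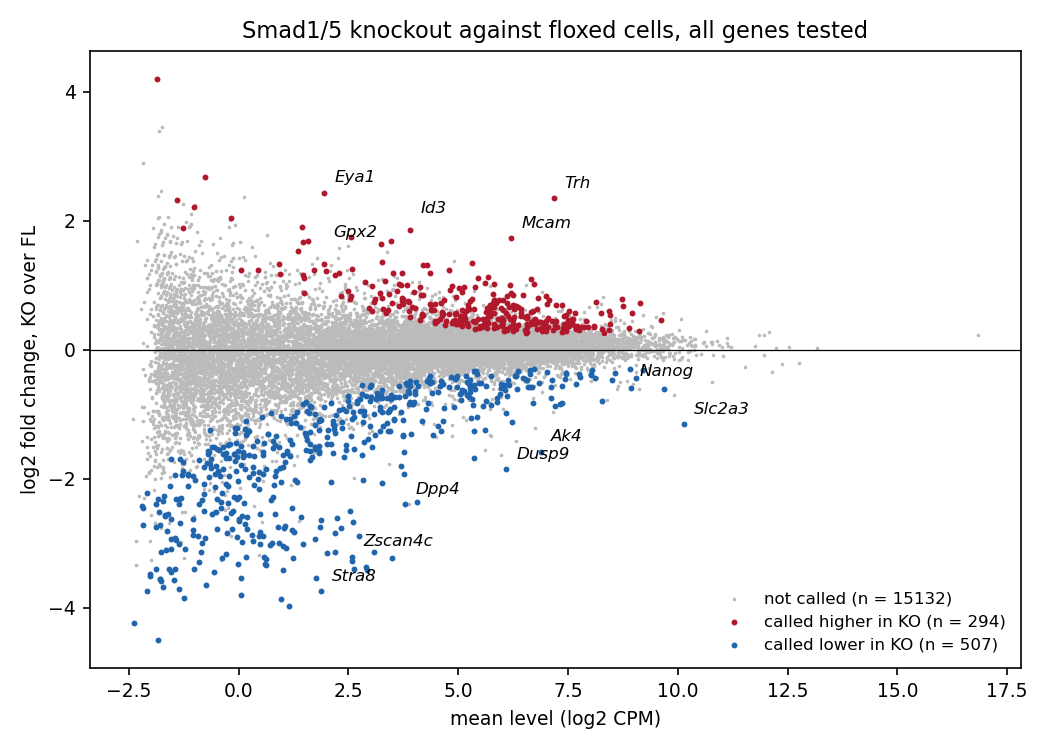
Log2 fold change (KO over FL) against the mean level (log2 CPM) of the 15933 genes tested, 1 point per gene. The 294 genes called higher and the 507 called lower are coloured; the falls reach farther from 0 than the rises, and the largest falls lie at low levels.

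The pairs of libraries did not all differ alike. KO 3 and KO 4 were the most similar pair (median chi-square per gene 1.31), KO 1 and KO 2 gave 2.98 and the FL pair 3.13, while 1 KO library of each pair against the other gave 5.00 to 5.44. The summed level of 9 noncoding RNAs kept as signs of RNA quality was 12266 and 14119 CPM in KO 3 and KO 4 and 20460 to 22446 CPM in the other 4 libraries, and its part in the results was not tested. On the first principal component, with 48.8% of the variance, KO 1 and KO 2 lay between the FL libraries and KO 3 and KO 4. The number of calls rested on both FL libraries. Without FL 1 edgeR called 0 genes (lowest adjusted p = 0.0595, 1948 genes, and 3646 with all libraries, had an unadjusted p below 0.05), and without FL 2 it called 142, of which 127 were among the 801. In both fits the lone FL library is assumed to vary like the KO libraries, which give all of the spread. All 801 genes kept their sign without FL 1. They were picked in a fit that held FL 2 and the same KO libraries, so this is no separate support. Without KO 1 the count was 857, without KO 2 538, without KO 3 236 and without KO 4 215. A set of 87 genes, 22 higher and 65 lower, was called in each of the 5 fits that kept FL 1. With DESeq2 the count on the 6 libraries was 1498. With the parental line as a block, edgeR called 2927 genes if FL 1 went with KO 1 and KO 2, and 250 to 498 under the other 5 ways to give each line 1 FL and 2 KO libraries. All 801 genes were among the 2927. Over all genes, the deviation of FL 1 from its group mean correlated with those of KO 1 and KO 2 (0.310 and 0.487), and that of FL 2 with those of KO 3 and KO 4 (0.470 and 0.436). With 2 FL libraries these deviations mirror each other. The values thus group the libraries as in the assignment with 2927 calls, but the labels do not give it, and no library was assigned to a line from its values. A block picked by these values would take out the spread that picked it. The split of 294 higher and 507 lower became 186 and 556 with upper-quartile scaling, and 196 and 563 with all 12 libraries in the fit. Each call named below was lost without FL 1, and the log2 fold change without it is given where it moved by more than 1.5-fold and for some other genes. The replicates are called biological in the labels, and by the design FL 1 and FL 2 come from different parental lines. No separate cultures are described for the 2 KO libraries of a line, so their difference may be technical. The p-values rest only on how far these 6 libraries differ among themselves.

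**Figure D2:**
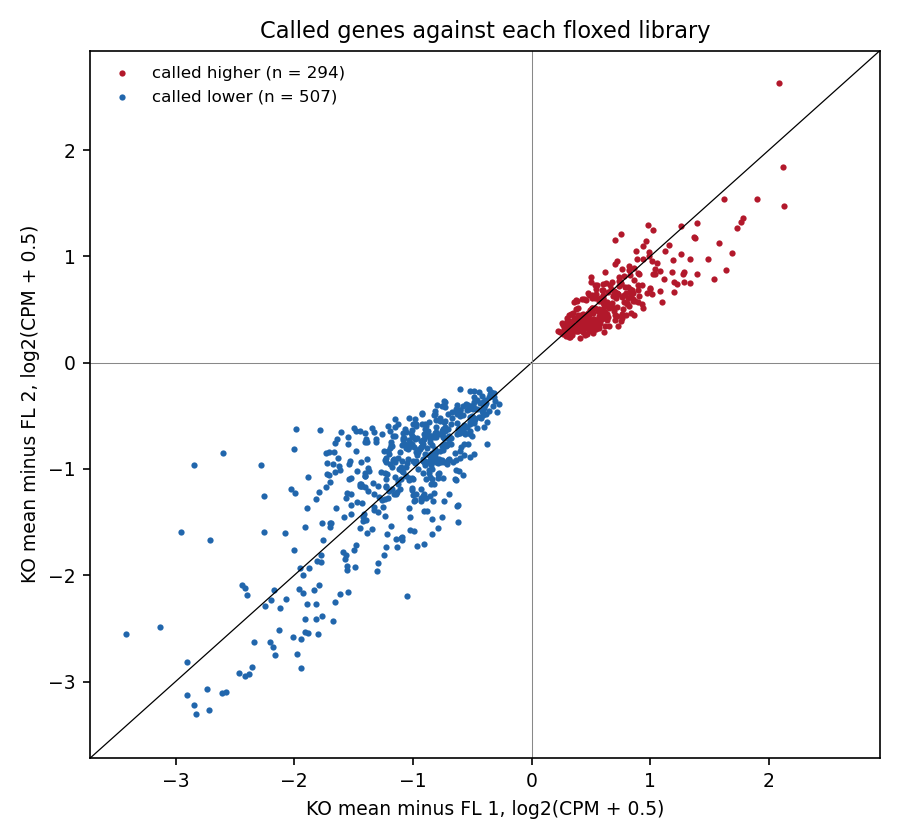
Difference of the KO mean from FL 1 (x axis) and from FL 2 (y axis), on log2(CPM + 0.5), for the 801 called genes, 1 point per gene, with the line of equal difference. Both FL libraries lie on the same side of the KO mean for these genes; 204 of the 294 rises and 273 of the 507 falls are farther from FL 1 than from FL 2.

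The transducers themselves were still read in the knockout. Smad1 (chr8:79338395-79399518) stood at 18.9 and 18.0 CPM in the FL libraries against 14.4, 17.3, 13.4 and 12.3 CPM in KO. Its groups did not overlap, but the difference did not pass the test (log2 fold change -0.36 ± 0.14, SE, edgeR adjusted p = 0.187). Smad5 (chr13:56703010-56742377) stood at 33.5 and 31.2 CPM in the FL libraries against 29.6, 25.0, 32.3 and 34.5 CPM in KO, with overlapping groups (log2 fold change -0.09 ± 0.13, SE, edgeR adjusted p = 0.719). The exons removed by the deletion are not named in the sources used here, and counts summed over a whole gene do not show a missing exon, so these values check no label. None of the 8 SMAD genes tested was called by edgeR without a block, while 2 had an unadjusted p under 0.05 and DESeq2 called 1. Over all 15933 genes tested, 3646 had such a p and DESeq2 called 1498. With FL 1, KO 1 and KO 2 taken as 1 parental line, edgeR called 2927 of the 15933 genes tested. Of the 8 SMAD genes it then called 3, Smad1 (adjusted p = 0.0462), Smad6 (0.0347) and Smad7 (0.0403), the first 2 lower and Smad7 higher in KO. No other assignment of lines gave these calls. Smad4, the partner shared with the TGF-beta branch, stood at 87.6 and 89.7 CPM in the FL libraries against 82.0, 85.1, 83.4 and 86.4 CPM in KO. Smad9, the third BMP-responsive SMAD, was low in every library, at 2.95 and 0.811 CPM in the FL libraries against 2.15, 1.87, 0.796 and 1.68 CPM in KO, and its FL libraries spanned all 4 KO values.

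Genes that respond to BMP moved in both directions. Of 16 tested BMP-SMAD targets, 2 were higher and 2 lower, 25.0% against 5.03% of all genes, and the median of the list was 0.01, as for all genes. The inhibitory Smad6, which shuts off the receptor, stood at 9.25 and 5.43 CPM in the FL libraries against 3.70, 4.98, 3.93 and 4.69 CPM in KO. FL 1 was the highest of the 6 and the groups did not overlap, but the gene did not pass (log2 fold change -0.76 ± 0.24, SE, edgeR adjusted p = 0.107), and without FL 1 its log2 fold change was -0.33. Smad7, the other inhibitory SMAD, stood at 57.0 and 39.9 CPM in the FL libraries against 61.7, 63.2, 50.8 and 51.2 CPM in KO, with FL 2 the lowest and FL 1 inside the KO range.

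The 4 Id genes, which encode inhibitors of basic helix-loop-helix factors, were low throughout. Id3 rose 3.62-fold (log2 fold change 1.86 ± 0.42, SE, edgeR adjusted p = 0.0489), from 4.10 and 6.70 CPM in the FL libraries to 10.5, 14.9, 25.1 and 27.8 CPM in KO. KO 3 and KO 4 were higher than KO 1 and KO 2, and the call was held in 1 of the 6 fits that left out a library. Id1 stood at 4.74 and 4.89 CPM in the FL libraries against 5.59, 5.43, 6.21 and 6.93 CPM in KO, without overlap but short of the threshold (log2 fold change 0.32 ± 0.16, SE, edgeR adjusted p = 0.280). Id2 (0.28) and Id4 (0.68) overlapped between the groups and did not pass.

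Dusp9, on the X chromosome (chrX:73639419-73643514), had the smallest adjusted p of the 16 targets. It stood at 175 and 87.1 CPM in the FL libraries against 40.5, 41.6, 30.3 and 32.7 CPM in KO. Every KO library was below both FL libraries, and FL 1 stood well above FL 2, so the 3.61-fold fall (log2 fold change -1.85 ± 0.24, SE, edgeR adjusted p = 0.0115) was smaller against FL 2 alone (log2 fold change -1.26). It was called in the 5 fits that kept FL 1 and in all 6 assignments of libraries to parental lines. Msx2, a homeobox target, fell from 0.825 and 0.703 CPM in the FL libraries to 0.135, 0.224, 0.137 and 0.297 CPM in KO (log2 fold change -1.93 ± 0.39, SE, edgeR adjusted p = 0.0363), levels near the filter. Prdm1, which encodes BLIMP1 and is induced by BMP in germ cell precursors, rose 1.36-fold (log2 fold change 0.44 ± 0.10, SE, edgeR adjusted p = 0.0495) and lost the call in 5 of the 6 fits that left out a library.

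Upstream of the SMADs, the receptors and most ligands did not pass. The type I receptor Bmpr1a was the most read receptor gene of the pathway list, at 142 and 127 CPM in the FL libraries against 132, 129, 136 and 129 CPM in KO, with fully overlapping groups (-0.03). Of 18 tested genes for ligands, receptors and extracellular inhibitors 2 rose and the others did not pass (11.1%, median -0.13). Fst encodes follistatin, which binds activin and some BMPs. It stood at 1.15 and 1.24 CPM in the FL libraries against 5.05, 3.22, 4.04 and 3.07 CPM in KO, all KO libraries above both FL libraries, a 3.20-fold rise (log2 fold change 1.68 ± 0.27, SE, edgeR adjusted p = 0.0190). Bmp4 itself rose 1.46-fold, from 14.7 and 13.3 CPM in the FL libraries to 18.4, 18.9, 21.6 and 22.6 CPM in KO (log2 fold change 0.54 ± 0.12, SE, edgeR adjusted p = 0.0489).

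The activin and nodal branch, which signals through SMAD2 and SMAD3, held 3 falls among 12 tested genes (25.0%), and the other 9 did not pass. Inhbb, the gene of the activin B subunit, stood at 24.0 and 14.9 CPM in the FL libraries against 6.40, 3.89, 4.48 and 3.73 CPM in KO. No KO library reached an FL library, and the fall was 4.21-fold (log2 fold change -2.07 ± 0.25, SE, edgeR adjusted p = 0.00981; -1.69 without FL 1). Gsc, a nodal target in the gastrula, was near the floor at 0.972 and 1.16 CPM in the FL libraries against 0.303, 0.364, 0.247 and 0.330 CPM in KO and fell 3.41-fold (log2 fold change -1.77 ± 0.30, SE, edgeR adjusted p = 0.0211). Skil, a SMAD co-repressor induced by activin, fell 1.48-fold (log2 fold change -0.56 ± 0.12, SE, edgeR adjusted p = 0.0423). Smad2 (0.08) and Smad3 (-0.08) did not pass.

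The ERK pathway is where BMP and 2i meet, since 2i holds an inhibitor of MEK. Of 24 tested genes of the FGF and ERK list, 2 rose and 1 fell (12.5%), 18 had a positive and 6 a negative fold change, and the median was 0.16. Il17rd, which encodes the feedback inhibitor SEF, stood at 37.1 and 45.3 CPM in the FL libraries against 74.3, 62.4, 71.5 and 72.6 CPM in KO and rose 1.70-fold (log2 fold change 0.77 ± 0.11, SE, edgeR adjusted p = 0.0138), called in all 5 fits that kept FL 1. Myc, a target of both ERK and LIF signalling, stood at 3.04 and 3.16 CPM in the FL libraries against 4.91, 6.60, 8.68 and 9.41 CPM in KO, with KO 3 and KO 4 the highest (log2 fold change 1.26 ± 0.28, SE, edgeR adjusted p = 0.0442). Fgfr3 fell from 5.83 and 1.22 CPM in the FL libraries to 0.572, 0.392, 0.192 and 0.363 CPM in KO. FL 1 was far above FL 2, and without FL 1 the log2 fold change went from -3.22 to -1.68.

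Spry4, Spry2 and Dusp6, also feedback genes of the pathway, had positive fold changes that did not pass without a block. On the whole list 6 of the 24 tested genes had a negative fold change, and in 11 the groups did not overlap. Spry4 stood at 13.1 and 14.5 CPM in the FL libraries against 18.8, 19.4, 29.2 and 31.1 CPM in KO (log2 fold change 0.83 ± 0.23, SE, edgeR adjusted p = 0.0815). Spry2 stood at 32.1 and 45.8 CPM in the FL libraries against 61.9, 47.9, 63.2 and 71.4 CPM in KO (log2 fold change 0.65 ± 0.18, SE, edgeR adjusted p = 0.0864) and Dusp6, the phosphatase most often used to read ERK activity, at 11.3 and 15.5 CPM in the FL libraries against 18.4, 16.5, 23.4 and 25.7 CPM in KO (log2 fold change 0.64 ± 0.21, SE, edgeR adjusted p = 0.122). With FL 1, KO 1 and KO 2 as 1 line, edgeR called 2927 of the 15933 genes tested. Among them were Spry4 (adjusted p = 0.00244), Spry2 (0.00393) and Dusp6 (0.00235). No other assignment of lines gave these calls. In Spry4, Spry2 and Dusp6 the groups did not overlap, as was so for 34.6% of all genes tested.

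**Figure D3:**
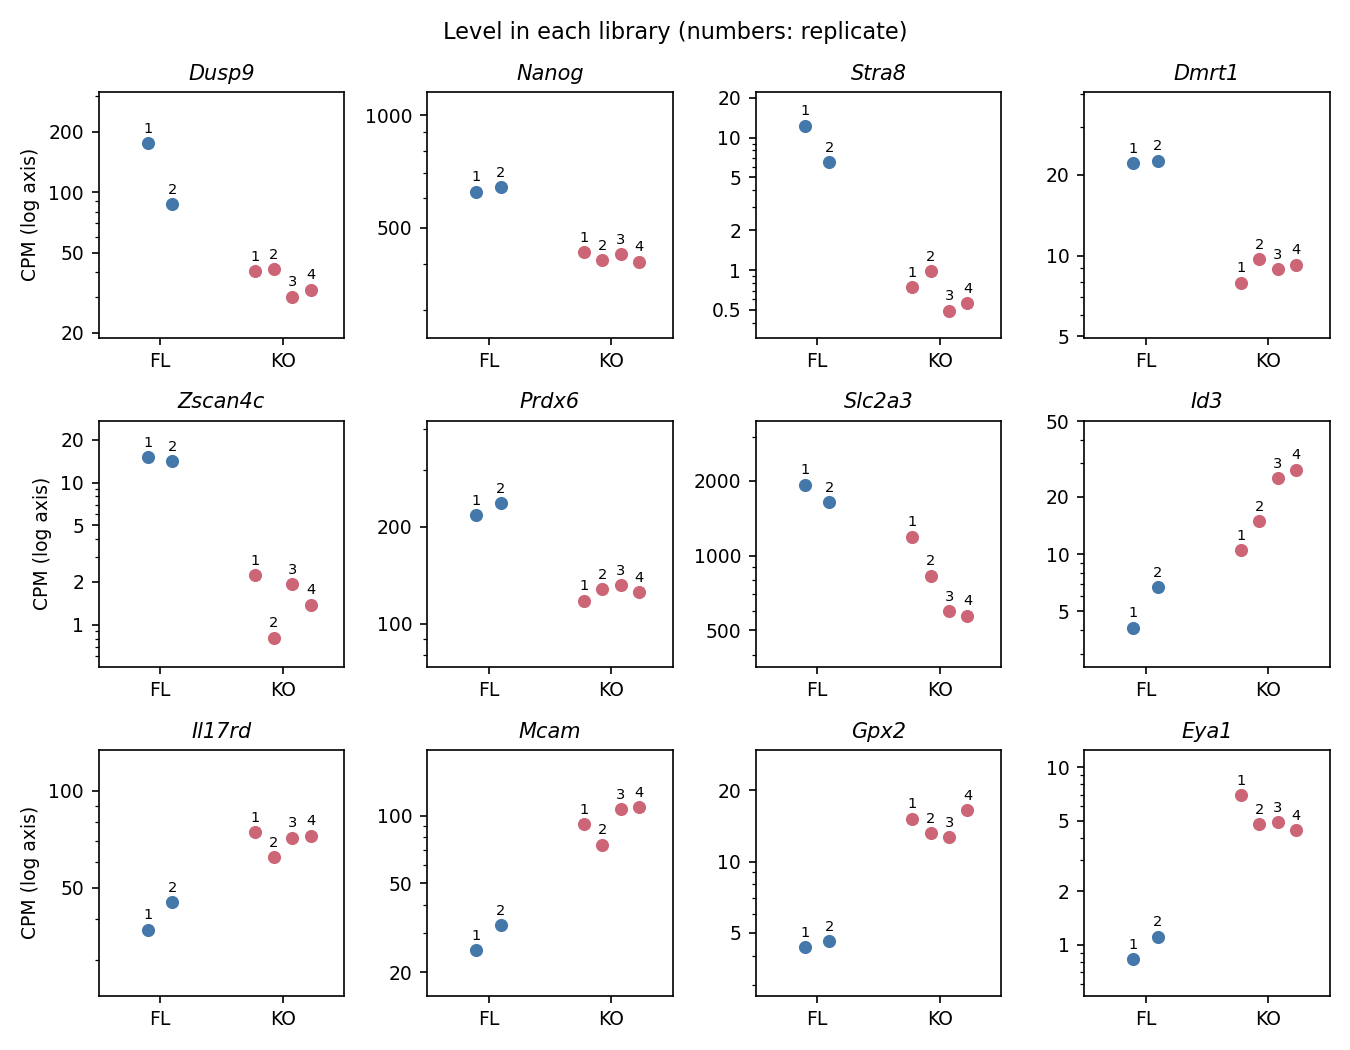
CPM (log axis) of 12 genes in each library, FL in one colour and KO in another, 1 point per library, with numbers for the replicates. Dusp9, Nanog, Stra8, Dmrt1, Zscan4c, Prdx6 and Slc2a3 are lower and Id3, Il17rd, Mcam, Gpx2 and Eya1 higher in all 4 KO libraries than in both FL libraries.

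Most of the tested pluripotency genes did not pass the test. Pou5f1, the gene of OCT4, stood at 845 and 880.4 CPM in the FL libraries against 930.2, 831, 912 and 897 CPM in KO, and Sox2 at 493 and 476 CPM in the FL libraries against 465, 467, 421 and 416 CPM in KO; neither passed (log2 fold changes 0.05 and -0.13). Nanog (chr6:122707489-122714633) was the exception among the central factors, at 623 and 641 CPM in the FL libraries against 429.7, 408, 424 and 405 CPM in KO. The replicates lay close together and the groups far apart, a 1.52-fold fall (log2 fold change -0.60 ± 0.06, SE, edgeR adjusted p = 0.00613), and the log2 fold change stayed between -0.62 and -0.59 whichever library was left out. Of 24 tested naive-state genes 1 rose and 2 fell (12.5%, median -0.13), and 17 of 24 had a negative sign.

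Prdm14, which represses DNA methyltransferase genes and is also required in primordial germ cells, was the other naive gene to fall. It stood at 55.0 and 52.6 CPM in the FL libraries against 40.3, 34.9, 33.0 and 33.3 CPM in KO, a 1.52-fold fall (log2 fold change -0.61 ± 0.10, SE, edgeR adjusted p = 0.0184). Tdh, the threonine dehydrogenase on which mouse stem cell metabolism depends, rose 1.48-fold from 332 and 426 CPM in the FL libraries to 531, 537, 584 and 584 CPM in KO (log2 fold change 0.56 ± 0.10, SE, edgeR adjusted p = 0.0292). Klf4 (-0.34 ± 0.11), Esrrb (-0.12 ± 0.09), Zfp42 (-0.10 ± 0.06) and Tfcp2l1 (0.05 ± 0.10, all log2 fold change ± SE) did not pass without a block. Klf4 did with FL 1, KO 1 and KO 2 as 1 line (edgeR adjusted p = 0.0386), and under no other assignment. That block called 2927 of the 15933 genes tested. Dppa3, which encodes STELLA, overlapped between the groups, with FL 1, KO 1 and KO 2 at 19.4, 18.7 and 17.9 CPM and FL 2, KO 3 and KO 4 at 65.9, 47.9 and 46.3 CPM. Without a block it did not pass, and with the first 3 libraries as 1 line its log2 fold change was -0.30 (edgeR adjusted p = 0.0495). This block follows the split of the gene's own levels and takes out that spread, so the call is no support for a change. Under the other assignments of lines Dppa3 did not pass.

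Genes of the later, primed state held 5 rises among 21 tested (23.8%), with a median of 0.04 over the list. The list had 2 rises with upper-quartile scaling, 0 without KO 3 and 1 without KO 4. Dnmt3b, a de novo DNA methyltransferase of the epiblast, stood at 266 and 307 CPM in the FL libraries against 378, 451, 570.3 and 580.1 CPM in KO, KO 3 and KO 4 the highest, and rose 1.73-fold (log2 fold change 0.79 ± 0.18, SE, edgeR adjusted p = 0.0447). Sox11, a SOX factor gene of the early neural plate, named after its values were seen, rose 1.88-fold, from 3.24 and 3.81 CPM in the FL libraries to 5.42, 6.88, 6.18 and 8.09 CPM in KO (log2 fold change 0.91 ± 0.20, SE, edgeR adjusted p = 0.0461). Epha4, an ephrin receptor gene, rose 1.61-fold (log2 fold change 0.69 ± 0.14, SE, edgeR adjusted p = 0.0359) and the tight junction gene Cldn6 1.46-fold (log2 fold change 0.54 ± 0.12, SE, edgeR adjusted p = 0.0434); Fst is the fifth. Fgf5, the usual marker of formative and primed cells, was near 0 in every library (0.177 and 0.324 CPM in the FL libraries against 0.135, 0.811, 0.659 and 0.396 CPM in KO). The summed level of the list was 791 and 821 CPM in FL and 957 to 1215 CPM in KO.

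Of 14 tested core factors shared by naive and primed cells, 2 rose and 1 fell (21.4%, median 0.15). Utf1, a chromatin protein gene, was among the rises, and Dppa2 was the fall. Utf1 stood at 38.2 and 38.3 CPM in the FL libraries against 60.6, 58.4, 62.7 and 78.0 CPM in KO (log2 fold change 0.76 ± 0.12, SE, edgeR adjusted p = 0.0188), with every KO library above both FL libraries. Dppa2, an activator of the cleavage-stage genes, stood at 79.5 and 88.6 CPM in the FL libraries against 53.2, 50.1, 64.6 and 62.5 CPM in KO, a 1.46-fold fall (log2 fold change -0.55 ± 0.11, SE, edgeR adjusted p = 0.0389), and lost the call in each of the 6 fits that left out a library.

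Of the 36 gene lists, the one with the largest share of calls was that of the 2-cell-like state, a rare state in which embryonic stem cells express genes otherwise read at zygotic genome activation. Of 41 tested members 35 fell and the other 6 did not pass, 85.4% called, with a median log2 fold change of -2.99 beside 0.01 for all genes. The count filter lets in genes read in the 2 FL libraries alone and leaves out members low in both groups, so this share and median depend on it. The falls numbered 29 with a filter at 1 CPM and 38 with no count filter. The called members fell 2.41-fold to 14.5-fold, and 34 of them over 4-fold. In 40 of the 41 the groups did not overlap, as in 34.6% of all genes tested. Bulk libraries do not tell fewer cells in this state from less RNA per cell. Summed over the 52 list genes in the table, the level was 317 and 417 CPM in FL and 98.3, 76.4, 132 and 114 CPM in KO 1 to KO 4.

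Within each genotype the members shared an order over the libraries. KO 2 was the lowest KO library in 38 of the 41 members, and FL 2 was above FL 1 in 36. Without FL 1 the called members, picked in a fit that held FL 2, had log2 fold changes of -3.99 to -1.46, and their calls were lost. Of the 35, 23 were called in all 4 fits without 1 KO library, and 6 in all 5 fits that kept FL 1, the number also called in the fit without FL 2.

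Zscan4, a family of zinc finger genes that lengthens telomeres in these cells, was called in full. Zscan4c stood at 15.1 and 14.2 CPM in the FL libraries against 2.22, 0.811, 1.92 and 1.39 CPM in KO (log2 fold change -3.21 ± 0.31, SE, edgeR adjusted p = 0.00638). Zscan4d, the form read in the embryo, stood at 25.2 and 29.5 CPM in the FL libraries against 3.57, 0.643, 3.98 and 3.56 CPM in KO (log2 fold change -3.22 ± 0.49, SE, edgeR adjusted p = 0.0162), and Zscan4b at 4.30 and 5.38 CPM in the FL libraries against 0.539, 0.168, 0.659 and 0.429 CPM in KO (log2 fold change -3.43 ± 0.38, SE, edgeR adjusted p = 0.00799). Zscan4e and Zscan4f fell by 3.23 and 3.01 on the log2 scale. The family members are nearly identical, and how reads were divided among them is not given, so the values of single copies are uncertain and the family as a whole is the safer reading.

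**Figure D4:**
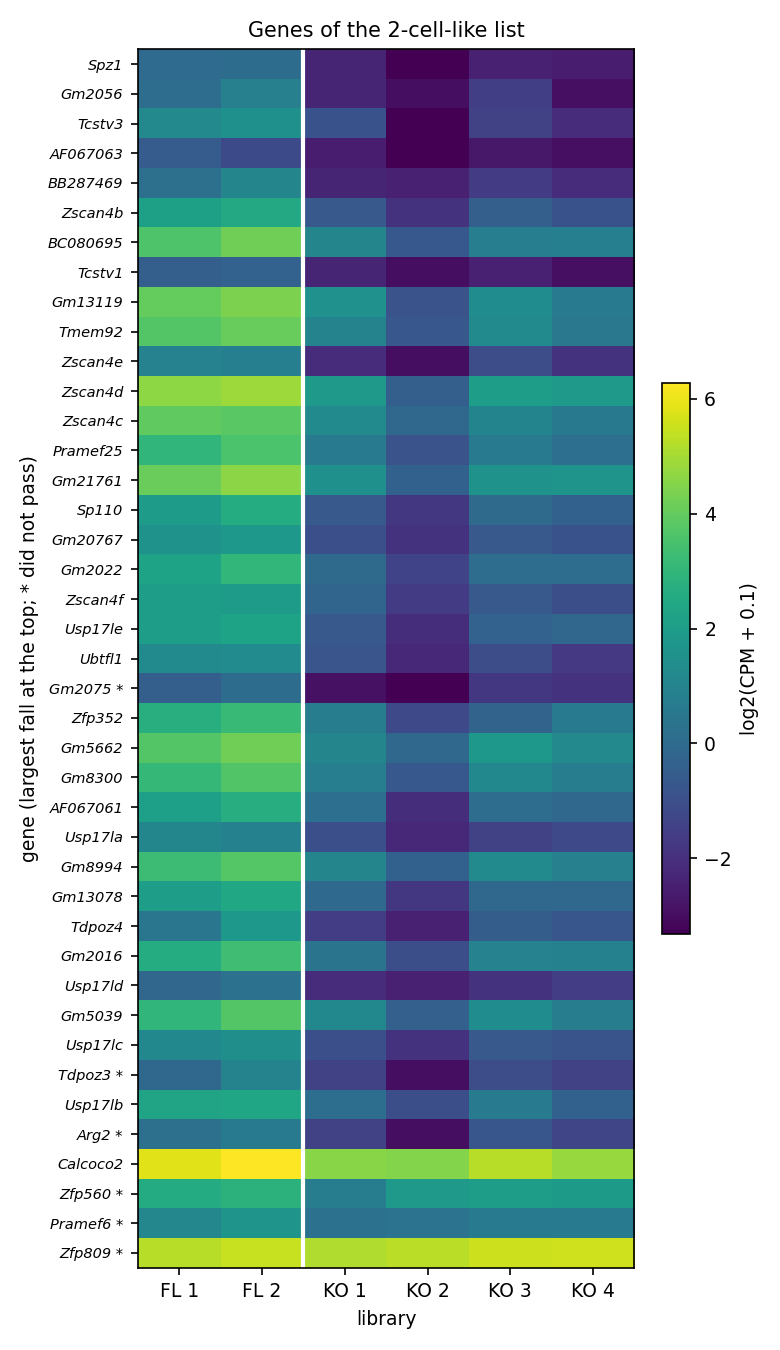
Level of the 41 tested genes of the 2-cell-like list in each library, as log2(CPM + 0.1), rows ordered by log2 fold change, with the 6 genes that did not pass marked by an asterisk. The 2 FL columns are higher than the 4 KO columns in 40 of the 41 rows, and the KO 2 column is the lowest of the KO columns in 38.

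Some of the falls lay close together on a chromosome. In runs where at least 4 called genes of 1 direction followed each other at distances of up to 300 kb (GRCm38 positions), 9 clusters were found, all of falls. The Zscan4 genes at chr7:10900740-11402318 were 5 of 5 tested. At chr12:87514316-88324026, 11 of 13 tested genes fell, all of them predicted or clone-named genes such as BB287469, with a median of -2.84 over the 13. The run at chr13:119827961-120318178 held 8 of 10, among them Tcstv1 and Tcstv3, and that at chr4:143551700-143951016 held 5 of 6, Pramef25 among them.

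A run of 4 of 4 at chr5:94302519-94616342 is unnamed but for clone names, with a median of -3.37. At chr11:94777217-95381872, 8 of 12 fell. Tmem92, a transmembrane protein gene of the 2-cell-like list, stood at 12.9 and 16.4 CPM in the FL libraries against 1.89, 0.503, 2.31 and 1.35 CPM in KO, and Itga3, an integrin gene, fell 2.54-fold (log2 fold change -1.35 ± 0.18, SE, edgeR adjusted p = 0.0130). At chr4:101419277-101943183, 5 of 9 fell: Ak4, the gene of a mitochondrial adenylate kinase, stood at 251 and 173 CPM in the FL libraries against 67.7, 60.9, 76.2 and 78.4 CPM in KO (log2 fold change -1.58 ± 0.15, SE, edgeR adjusted p = 0.00607), and the predicted gene Gm12794 at 15.5 and 21.9 CPM in the FL libraries against 1.92, 0.336, 2.44 and 2.34 CPM in KO. The remaining runs, with 4 of 19 on chromosome 11 and 4 of 16 on chromosome 7, held falls spread among many uncalled genes.

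Sequences before the Zscan4 genes are shown because these members fell together. The RefSeq windows (GRCm38.p6) run from 250 bases before the start of the gene to 50 bases after it and are written 5' to 3' on the strand of the gene: Zscan4b chr7:10905001-10905300 (minus strand), Zscan4c chr7:11005495-11005794 (plus) and Zscan4d chr7:11166099-11166398 (minus). Capitals mark a match to TGATTNAAT, part of the sequence known for the cleavage-stage factor DUX, on either strand.
Zscan4b: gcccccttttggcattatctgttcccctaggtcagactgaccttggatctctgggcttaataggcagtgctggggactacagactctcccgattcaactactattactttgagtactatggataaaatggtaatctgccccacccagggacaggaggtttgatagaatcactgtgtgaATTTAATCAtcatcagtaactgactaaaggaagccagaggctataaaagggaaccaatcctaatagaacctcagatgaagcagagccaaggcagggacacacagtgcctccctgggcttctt
Zscan4c: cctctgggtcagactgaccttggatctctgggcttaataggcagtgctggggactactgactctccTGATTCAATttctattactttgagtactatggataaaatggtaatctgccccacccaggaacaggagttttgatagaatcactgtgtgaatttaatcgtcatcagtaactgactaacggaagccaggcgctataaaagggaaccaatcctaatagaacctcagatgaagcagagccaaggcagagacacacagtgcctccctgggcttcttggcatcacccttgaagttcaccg
Zscan4d: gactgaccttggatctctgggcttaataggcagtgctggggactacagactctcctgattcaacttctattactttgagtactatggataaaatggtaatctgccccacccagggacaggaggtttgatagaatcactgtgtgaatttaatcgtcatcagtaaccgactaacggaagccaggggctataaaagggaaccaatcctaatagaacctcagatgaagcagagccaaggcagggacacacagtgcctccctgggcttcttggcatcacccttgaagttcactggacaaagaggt

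Slid along each other without gaps, the windows of Zscan4b, Zscan4c, Zscan4d and Zscan4f were 95.3% to 99.3% identical over 266 to 300 shared bases. Zscan4b had its match 72 bases before the start on the minus strand, Zscan4c 184 bases before it on the plus strand, and the window of Zscan4d had none. Windows on chromosome 18 were left out of the counts below. A window was found for 16 of the called 2-cell-like genes. Of these, 6 (37.5%) held a match: 3 Zscan4 copies, BB287469 of the chromosome 12 run, and AF067061 and Gm21761, both of the chromosome 13 run. A match was in 0.428% of the 10756 tested genes with a window (0.84% of all 27025 genes) and in 0 of the 217 called higher. It was in 9 of the 338 genes called lower (2.66%), and the 6 are among these 9. The palindrome GTCTAGAC, bound by SMAD proteins, was in the windows of 2 of the 338 lower genes and 0 of the 217 higher ones, against 0.298% of tested genes and 0.248% of all genes. The GC-rich SMAD motif GGCGCC was in 26.9% of the lower, 22.6% of the higher and 24.3% of all tested genes with a window (13.4% of all genes). Neither SMAD motif was in any of the 16 windows of 2-cell-like genes.

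Germ line and meiosis genes also held many falls, 8 of 32 tested (25.0%), with the other 24 short of the threshold, a median of -0.65, and 30 of 32 with a negative sign. Stra8, the gatekeeper of meiosis that retinoic acid induces, stood at 12.3 and 6.51 CPM in the FL libraries against 0.741, 0.979, 0.494 and 0.561 CPM in KO. Every KO library was at or under 0.98 CPM, and the 13.4-fold fall (log2 fold change -3.75 ± 0.33, SE, edgeR adjusted p = 0.00607) was -3.22 on the log2 scale without FL 1. Dmrt1, a transcription factor gene of testis and germ cells, stood at 22.0 and 22.6 CPM in the FL libraries against 7.91, 9.68, 8.90 and 9.24 CPM in KO, with almost equal replicates, a 2.50-fold fall (log2 fold change -1.32 ± 0.12, SE, edgeR adjusted p = 0.00607). Tex11, an X-linked gene of meiotic recombination, fell 2.54-fold from 10.9 and 8.59 CPM in the FL libraries to 3.03, 3.50, 4.59 and 4.22 CPM in KO (log2 fold change -1.35 ± 0.20, SE, edgeR adjusted p = 0.0158).

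The other falls named from the list were smaller than that of Stra8. Mov10l1, an RNA helicase gene of piRNA production, stood at 6.45 and 4.08 CPM in the FL libraries against 1.75, 2.21, 1.54 and 2.15 CPM in KO (log2 fold change -1.46 ± 0.25, SE, edgeR adjusted p = 0.0210). Ddx4, the germ cell helicase VASA, fell 1.89-fold (log2 fold change -0.92 ± 0.17, SE, edgeR adjusted p = 0.0290) and Piwil2, a PIWI protein gene, 1.48-fold (log2 fold change -0.57 ± 0.13, SE, edgeR adjusted p = 0.0490). Taf7l, a germ cell TFIID subunit, fell 1.93-fold (log2 fold change -0.95 ± 0.15, SE, edgeR adjusted p = 0.0185). Mov10l1, Ddx4 and Piwil2 were named after their values were seen. The list had 4 calls without FL 2, 3 without KO 3 and 4 without KO 4.

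Of 13 tested primordial germ cell genes, 3 fell (Kit, Alpl and Prdm14) and 1 rose (Prdm1), 30.8% called against 5.03% of all genes. The list had 3 falls and 0 rises with upper-quartile scaling, with a filter at 1 CPM and with all 12 libraries. Without KO 4 it had 1 fall and 0 rises. Kit, the receptor gene of stem cell factor and also a member of the germ line list, stood at 117 and 86.6 CPM in the FL libraries against 63.2, 54.3, 44.2 and 43.8 CPM in KO, a 1.98-fold fall (log2 fold change -0.99 ± 0.17, SE, edgeR adjusted p = 0.0218). Alpl, the tissue-nonspecific alkaline phosphatase used to stain these cells, stood at 231 and 236 CPM in the FL libraries against 165, 136, 109.6 and 114 CPM in KO, with KO 3 and KO 4 the lowest (log2 fold change -0.83 ± 0.15, SE, edgeR adjusted p = 0.0251).

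Of the DNA methylation genes, 2 rose and 2 fell among 22 tested (18.2%, median 0.08). The list had 0 rises with upper-quartile scaling and 0 with a filter at 1 CPM. Besides Dnmt3b, its cofactor Dnmt3l rose 1.67-fold, from 212 and 180.4 CPM in the FL libraries to 252, 318, 369 and 368 CPM in KO (log2 fold change 0.74 ± 0.16, SE, edgeR adjusted p = 0.0421). Tet2, which oxidises methylcytosine, fell from 184 and 193 CPM in the FL libraries to 136, 85.3, 116 and 114 CPM in KO (log2 fold change -0.75 ± 0.15, SE, edgeR adjusted p = 0.0361), and Gadd45b, linked to demethylation and stress, from 45.0 and 34.8 CPM in the FL libraries to 16.6, 17.1, 15.8 and 17.2 CPM in KO, 2.39-fold (log2 fold change -1.26 ± 0.11, SE, edgeR adjusted p = 0.00607). Gadd45b was called in all 5 fits that kept FL 1. The maintenance enzyme gene Dnmt1 (0.19 ± 0.06), Uhrf1 (0.19 ± 0.06), Dnmt3a (-0.22 ± 0.10) and Tet1 (0.21 ± 0.15; log2 fold change ± SE) did not pass.

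Imprinted genes held 2 rises and 1 fall among 29 tested (10.3%). The rises were the neighbouring maternal noncoding RNAs Meg3 and Rian of chromosome 12: Rian stood at 371 and 411 CPM in the FL libraries against 689.9, 518, 695 and 679 CPM in KO (log2 fold change 0.72 ± 0.13, SE, edgeR adjusted p = 0.0238) and Meg3 at 73.8 and 95.5 CPM in the FL libraries against 143, 117, 165 and 175 CPM in KO (log2 fold change 0.82 ± 0.17, SE, edgeR adjusted p = 0.0392). Peg12, a paternal gene, fell 3.01-fold from 29.1 and 19.4 CPM in the FL libraries to 9.93, 6.41, 7.77 and 8.15 CPM in KO (log2 fold change -1.59 ± 0.20, SE, edgeR adjusted p = 0.0107).

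Some target genes of p53 rose by small amounts. Of 26 tested 8 rose and 18 did not pass (30.8%), 24 of 26 had a positive sign, and the median was 0.34. Eda2r, a death receptor gene, stood at 153 and 157 CPM in the FL libraries against 206, 218, 224 and 210.3 CPM in KO and rose 1.38-fold (log2 fold change 0.47 ± 0.06, SE, edgeR adjusted p = 0.0121). Ccng1, the cyclin G1 gene, stood at 243 and 269 CPM in the FL libraries against 347, 395, 405 and 404 CPM in KO (log2 fold change 0.60 ± 0.09, SE, edgeR adjusted p = 0.0142), and Trp53inp1, a gene of autophagy and cell death, at 276 and 339 CPM in the FL libraries against 403, 480.1, 559 and 516 CPM in KO (log2 fold change 0.67 ± 0.14, SE, edgeR adjusted p = 0.0373). In each FL 1 was the lowest library.

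Other p53 targets that rose were Psrc1, a microtubule gene (1.43-fold, log2 fold change 0.52 ± 0.08, SE, edgeR adjusted p = 0.0173), and the antiproliferative Btg2 (1.66-fold, log2 fold change 0.73 ± 0.14, SE, edgeR adjusted p = 0.0308). The kinase gene Plk2 (1.01), the nuclease gene Aen (0.43) and the BH3-only gene Bbc3 (0.56, log2 fold changes), named after their values were seen, also passed. Cdkn1a, the cell cycle inhibitor p21, and Mdm2, the negative regulator of p53, overlapped between the groups and did not pass (0.31 and 0.35). Both did with FL 1, KO 1 and KO 2 as 1 line (edgeR adjusted p = 0.0453 and 0.00757), and under no other assignment. That block called 2927 of the 15933 genes tested. None of the 8 calls was held in all 5 fits that kept FL 1: the list had 0 calls without FL 2, 2 without KO 3 and 3 without KO 4. The anti-apoptotic Mcl1 fell 1.36-fold, from 664 and 622 CPM in the FL libraries to 455, 515, 451 and 468 CPM in KO (log2 fold change -0.44 ± 0.07, SE, edgeR adjusted p = 0.0192).

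Glycolysis genes leaned downward. The 21 tested had a median of -0.44, 19 with a negative sign, and 2 passed (9.52%). Slc2a3, the glucose transporter GLUT3, stood at 1927 and 1634 CPM in the FL libraries against 1192, 831, 598 and 572 CPM in KO, a 2.23-fold fall (log2 fold change -1.16 ± 0.27, SE, edgeR adjusted p = 0.0494), with KO 3 and KO 4 below KO 1 and KO 2. Ldha, lactate dehydrogenase A, stood at 1217 and 920.0 CPM in the FL libraries against 645, 832, 630.0 and 688 CPM in KO (log2 fold change -0.61 ± 0.14, SE, edgeR adjusted p = 0.0473; -0.39 without FL 1). The lean depended on FL 1: the median of the list was -0.55 against FL 1 and -0.20 against FL 2, on differences of log2(CPM + 0.5).

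Among 28 tested glutathione and redox genes 2 rose and 2 fell (14.3%). Gpx2, the intestinal type of glutathione peroxidase, stood at 4.33 and 4.59 CPM in the FL libraries against 15.1, 13.1, 12.7 and 16.5 CPM in KO, a 3.21-fold rise (log2 fold change 1.68 ± 0.16, SE, edgeR adjusted p = 0.00607). Gpx4, the peroxidase that repairs lipids and holds off ferroptosis, fell 1.84-fold, from 221 and 203 CPM in the FL libraries to 138, 126, 97.8 and 98.7 CPM in KO (log2 fold change -0.88 ± 0.14, SE, edgeR adjusted p = 0.0190). Prdx6 stood at 217 and 236 CPM in the FL libraries against 118, 128, 132 and 125 CPM in KO, with every KO library near 126 CPM (log2 fold change -0.85 ± 0.07, SE, edgeR adjusted p = 0.00607). Gpx2 and Prdx6 were called in all 5 fits that kept FL 1.

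Adhesion genes changed in both directions, 2 up and 4 down of 27 tested (22.2%). Mcam, the adhesion molecule CD146, stood at 25.1 and 32.4 CPM in the FL libraries against 91.5, 74.0, 107 and 109 CPM in KO, a 3.31-fold rise (log2 fold change 1.73 ± 0.18, SE, edgeR adjusted p = 0.00774). The integrin gene Itgb3 fell 2.89-fold from 2.89 and 2.92 CPM in the FL libraries to 1.04, 1.37, 0.851 and 0.726 CPM in KO (log2 fold change -1.53 ± 0.27, SE, edgeR adjusted p = 0.0248). Serpinh1, the collagen chaperone, was the only call among 22 tested matrix genes and fell 2.38-fold (log2 fold change -1.25 ± 0.19, SE, edgeR adjusted p = 0.0168).

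Immune sensors were split as well, 2 up and 4 down of 21 tested innate immunity genes (28.6%). Ddx58, which encodes the RNA sensor RIG-I, stood at 55.9 and 70.4 CPM in the FL libraries against 112, 123, 138 and 138 CPM in KO, a 2.03-fold rise (log2 fold change 1.02 ± 0.12, SE, edgeR adjusted p = 0.00951). Nlrc4, an inflammasome sensor gene, rose 3.36-fold from 1.86 and 2.65 CPM in the FL libraries to 5.72, 6.46, 9.69 and 8.48 CPM in KO (log2 fold change 1.75 ± 0.28, SE, edgeR adjusted p = 0.0185). Sp110, a nuclear body gene, fell 8.42-fold (log2 fold change -3.07 ± 0.44, SE, edgeR adjusted p = 0.0142) and is also a member of the 2-cell-like list, and the class I histocompatibility gene H2-D1 fell 1.66-fold (log2 fold change -0.73 ± 0.13, SE, edgeR adjusted p = 0.0248).

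LIF signalling, through STAT3, had 1 call among 16 tested genes (6.25%), near the 5.03% of all genes. Socs2, a feedback inhibitor of cytokine receptors, stood at 58.3 and 60.6 CPM in the FL libraries against 92.8, 88.6, 97.7 and 97.7 CPM in KO, with little spread in either group (log2 fold change 0.66 ± 0.07, SE, edgeR adjusted p = 0.00774). The cell cycle list had 1 call of 28 (3.57%, below the share of all genes), Cdk2 (1.29-fold higher, log2 fold change 0.36 ± 0.07, SE, edgeR adjusted p = 0.0284).

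Some of the largest single-gene changes lay outside the groups above. Eya1, a transcriptional co-activator and phosphatase gene of organ development, stood at 0.825 and 1.11 CPM in the FL libraries against 6.93, 4.78, 4.89 and 4.42 CPM in KO, a 5.40-fold rise (log2 fold change 2.43 ± 0.28, SE, edgeR adjusted p = 0.00799). Trh, the gene of thyrotropin-releasing hormone, stood at 45.9 and 31.2 CPM in the FL libraries against 372, 128, 138 and 149 CPM in KO. KO 1 was far above the other KO libraries, and the rise of 5.10-fold (log2 fold change 2.35 ± 0.49, SE, edgeR adjusted p = 0.0383) had a log2 fold change of 1.84 in the fit that lowered it most. Abcg1, a cholesterol exporter gene, rose 2.49-fold (log2 fold change 1.32 ± 0.23, SE, edgeR adjusted p = 0.0238). Kndc1 (3.12-fold), Abhd12b (3.19-fold), the tryptophan-degrading Ido2 (2.90-fold), Sh2d4b (2.57-fold) and Pdzd2 (2.50-fold) also rose, all from FL levels under 5 CPM.

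Falls outside the lists included Adgra2, an adhesion receptor gene of brain vessels, which stood at 7.04 and 4.30 CPM in the FL libraries against 0.640, 0.448, 0.247 and 0.0990 CPM in KO, a 15.7-fold fall (log2 fold change -3.98 ± 0.47, SE, edgeR adjusted p = 0.00893). Dpp4, a peptidase of the cell surface, stood at 31.9 and 27.6 CPM in the FL libraries against 4.38, 4.84, 6.78 and 6.60 CPM in KO (log2 fold change -2.39 ± 0.19, SE, edgeR adjusted p = 0.00607), and Halr1, a long noncoding RNA beside the HoxA genes, at 5.25 and 4.03 CPM in the FL libraries against 0.505, 0.643, 0.467 and 0.627 CPM in KO (log2 fold change -3.04 ± 0.23, SE, edgeR adjusted p = 0.00607). Myo1f, a myosin gene of blood cells, and Ptpru, a receptor phosphatase gene, fell 6.39-fold and 5.68-fold, and both were higher in FL 1 than in FL 2 (19.8 and 7.41 CPM for Myo1f, 17.2 and 8.11 CPM for Ptpru). Without FL 1 their log2 fold changes went from -2.68 to -1.80 and from -2.51 to -1.86. Ccser1 and, from the neuron marker list, Nlgn1, a synaptic adhesion gene, also fell, 6.02-fold and 9.43-fold.

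Some called genes with high levels are not in the groups above. Rlim, an X-linked ubiquitin ligase gene that targets the naive factor REX1, stood at 583 and 669.8 CPM in the FL libraries against 786, 823, 936 and 899 CPM in KO (log2 fold change 0.46 ± 0.09, SE, edgeR adjusted p = 0.0363). The nucleolar helicase gene Ddx21 rose 1.22-fold (log2 fold change 0.29 ± 0.06, SE, edgeR adjusted p = 0.0436) and the poly(A)-binding protein gene Pabpc1 1.26-fold (log2 fold change 0.33 ± 0.08, SE, edgeR adjusted p = 0.0473). Mtf2, a Polycomb accessory gene, fell 1.24-fold (log2 fold change -0.31 ± 0.07, SE, edgeR adjusted p = 0.0493), the calcium pump gene Atp2a2 1.28-fold and Fubp1, a regulator of Myc transcription, 1.39-fold.

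**Figure D5:**
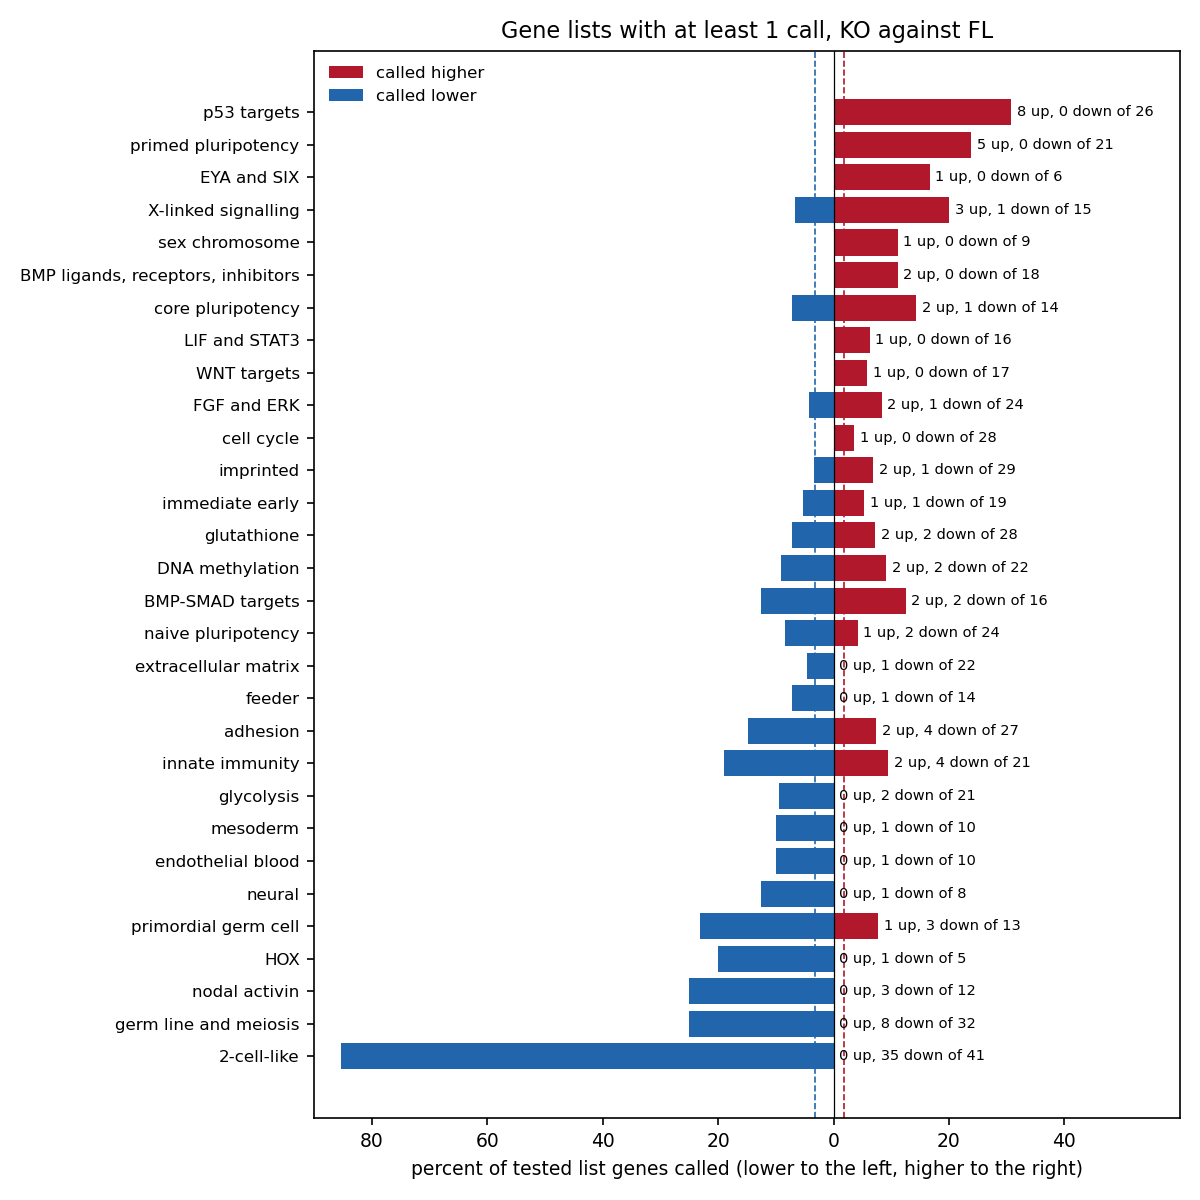
Share of each gene list called higher (right) and lower (left) in KO, in percent of its tested genes, for the lists with at least 1 call, with the counts beside the bars and dashed lines at the shares among all genes, 1.85% higher and 3.18% lower. The longest bar on the lower side is that of the 2-cell-like list, at 35 of 41.

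Several markers of other cells were near 0, while other members of their lists and the summed levels were not. The feeder fibroblast genes Col1a2, Col3a1, Dcn and Postn were at 0.38 CPM or less in every library, as were the endoderm genes Foxa2, Afp and Ttr and the trophectoderm genes Cdx2 and Elf5. On the same lists, Fn1 (feeder) stood at 498 to 671 CPM, Sparc (endoderm) at 136 to 370 CPM and Tfap2c (trophectoderm) at 37.9 to 72.9 CPM. Of the markers tested, none of 16 endoderm and 13 trophectoderm genes was called by edgeR (3 and 5 had an unadjusted p under 0.05, and DESeq2 called 0 and 1). Over all 15933 genes tested, 3646 had such a p and DESeq2 called 1498. A single call each was made for mesoderm (Gsc, of 10), neurons (Nlgn1, of 8), feeders (Loxl1, of 14) and endothelium and blood (Flt1, of 10), all lower in KO. The summed level was 586 and 608 CPM in FL and 638 to 752 CPM in KO for the feeder list, 225 and 370 against 261 to 502 CPM for endoderm, and 11.2 and 11.8 against 7.24 to 9.44 CPM for mesoderm. It was 174 and 188 against 139 to 170 CPM for neurons, 112 and 124 against 82.4 to 106 CPM for trophectoderm, and 30.7 and 31.0 against 26.0 to 38.2 CPM for endothelium and blood. The part of other cells in the results was not tested. By chromosome, the median log2 fold change was between -0.02 and 0.05 on the autosomes and 0.03 on X.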

How the data were processed

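Per the labels' protocols, total RNA was purified on columns, freed of ribosomal RNA and made into stranded libraries. The submitters' processing notes name the builds mm10 and GRCm38.p4 and the tools STAR 2.4.1d and featureCounts 1.4.6, beside CASAVA 1.8.2, FastQC 0.11.3 and DESeq2 1.6.3. Neither the annotation release nor the strand setting of the counting is named there, so overlapping, antisense and near-identical genes can share reads. The authors deposited raw counts per gene and a TPM table, whose values are a normalised signal and equal (count + 1) over a gene length, scaled per library, to within 1% for all 38310 genes compared.

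Groups and replicate numbers came from the titles. The 2 FL and 4 KO libraries were tested with edgeR 4.0.16 (R 4.3.3; quasi-likelihood, TMM scaling, expression filter with a minimum count of 10 and total of 15, no block), and a gene was called at a Benjamini-Hochberg adjusted p under 0.05. CPM use TMM-scaled library sizes, and standard errors (SE) follow from the fold change and its F statistic. Positions are those of GENCODE M21 (GRCm38), and promoter windows those of RefSeq (GRCm38.p6) without chromosome 18.

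The comparison, the 36 gene lists (724 genes, 17 not in the table) and the rule for named genes were chosen with earlier results of these data known. The rule takes Smad1 and Smad5, the 14 largest rises and falls whose mean log2 CPM reaches 1 (without predicted genes, pseudogenes and repeated family members), the 8 called genes with the highest CPM in each direction, up to 4 called genes per list or cluster, and any tested gene of the signalling, pluripotency and DNA methylation lists. Zscan4e, Tcstv3, Cdkn1a, Mdm2 and the genes so marked in the text lie outside it, and some results are not reported here. Lists were described by counts and medians and not tested. Alternatives were DESeq2 1.42.0, limma 3.58.1 on log2(TPM + 1) and log2(TPM + 0.1), other scalings and filters, all 12 libraries, blocks for replicate number or parental line, and each library left out.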

Additional observations from a re-analysis of the deposited data

Results flagged for a closer look

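Of the 126 genes named here, 5 had a KO library whose gap to its nearest neighbour, as a part of the range of the 4 KO libraries, was above Dixon's critical value, and chance alone passes this in about 1 of 20 groups. Trh stood at 372 CPM in KO 1 against 128 to 149 CPM in the others, and Abcg1 at 32.0 CPM in KO 1 against 18.8 to 20.3 CPM. Cdkn1a was lowest in KO 1, at 47.1 CPM, with the others at 60.1 to 60.8 CPM. Rian was lowest in KO 2, at 518 CPM, with the others at 679 to 695 CPM. Zscan4d was lowest in KO 2 as well, at 0.643 CPM against 3.56 to 3.98 CPM, the library that was lowest for 38 of the 41 genes of the 2-cell-like list. The FL group has 2 libraries and cannot be screened this way.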

How the results depend on the processing

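With edgeR 0 genes passed under the replicate block (2589 with an unadjusted p under 0.05, lowest adjusted p = 0.0689), in which KO 3 and KO 4 have no FL partner and 1 residual degree of freedom is left. FL 1 and KO 1 deviated together (correlation 0.310) and FL 2 and KO 2 did not (-0.487), so the numbers give no pairing. In fits without FL 1 or FL 2 the lone FL library is assumed to vary like the KO libraries. The cause of the changes below was not tested. Calls over all genes, higher and lower, were 1498, 653 and 845 with DESeq2, 198, 39 and 159 with limma on log2(TPM + 1), 97, 27 and 70 with log2(TPM + 0.1), 360, 32 and 328 without its filter, 186 higher with upper-quartile scaling, 192 higher with a filter at 1 CPM and 196 higher with all 12 libraries. With parental line blocks they were 2927 (1379 and 1548) with KO 1 and KO 2 beside FL 1, 250 (70 and 180) with KO 1 and KO 3, 325 (100 and 225) with KO 1 and KO 4, 380 (114 and 266) with KO 2 and KO 3, 419 (124 and 295) with KO 2 and KO 4, and 498 (179 and 319) with KO 3 and KO 4. Leaving out 1 library gave 0 to 857 calls, 0 to 362 higher and 0 to 495 lower. The 35 falls of the 2-cell-like list became 0 under the replicate block, 21 and 3 with limma at the higher and lower pseudocount, and 0 to 35 without 1 library. The 8 germ line falls became 0 under the replicate block, 14 and 5 with KO 1 and KO 2 or KO 1 and KO 3 beside FL 1, 5, 2 and 3 with the 3 limma fits, and 0 to 9 without 1 library. The 8 p53 rises became 0 under the replicate block and all 3 limma fits, 3 with all 12 libraries, 18, 3, 4, 4, 3 and 5 with the 6 line blocks in the order above, and 0 to 10 without 1 library. With KO 1 and KO 2 beside FL 1, edgeR also called 10 named genes that had not passed, the only such gains under the line blocks. None of the 97 called genes named changed sign in the 22 alternatives, which reuse the libraries that gave the calls and so are no separate support. Of the uncalled ones, the log2 fold change turned under the replicate block for Id2 (-0.0377), Smad3 (0.0759) and Smad9 (0.323). Without 1 library it ranged from -0.123 to 0.0496 for Bmpr1a, -1.01 to 0.744 for Dppa3, -0.0215 to 0.168 for Smad2, -0.356 to 0.240 for Smad3, -0.0218 to 0.510 for Smad7, -0.876 to 0.998 for Smad9 and -0.00527 to 0.0907 for Tfcp2l1, turning without FL 1 (Bmpr1a, Smad3, Smad9), FL 2 (Dppa3, Smad2, Smad7), KO 1 (Tfcp2l1) or KO 3 (Smad9). Genes under about 1 CPM, many of the 2-cell-like list among them, rest on few counts per KO library.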

Other observations

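Small nucleolar RNAs had 5 calls higher among 197 tested (2.54%), and long intergenic noncoding RNAs had 4 higher and 10 lower among 380 (3.68%), both shares below the 5.03% of all genes. The 6 tested genes of the EYA family and its homeobox partners had 1 call, Eya1 (16.7%).

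Cholesterol synthesis and uptake genes had a median of -0.13 with 19 of 22 negative, and edgeR called 0 of them (6 had an unadjusted p under 0.05, and DESeq2 called 2). Of 9 tested transcripts of the mitochondrial genome edgeR called 0 (4 had an unadjusted p under 0.05, and DESeq2 called 1), with a median of 0.27. Over all 15933 genes tested, 3646 had an unadjusted p under 0.05 and DESeq2 called 1498. WNT targets had 1 call among 17 (Bmp4, 5.88%), HOX genes 1 among 5 (Hoxb4, lower, 20%), immediate early genes 1 rise (Btg2) and 1 fall (Ier3) among 19 (10.5%), and the sex chromosome list 1 among 9 (Rlim, 11.1%).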
